A study of Mus musculus with 24 samples.

Results

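H19, Igf2, Afp, Gpc3, Meg3, Dlk1, Cdkn1c, Peg3 and Igf2bp3 are 9 fetal or imprinted genes, described here in mouse liver after a fibrosis-inducing diet, out of 56205 genes in the count table. The 9 were chosen from the comparison of the diets in these same libraries, so their differences between the diets are a description, and no p-value is given for them. The lists of other genes below were also drawn up with earlier results of these data known. Their adjusted p-values for diet are therefore descriptive and not independent evidence. Whole livers of C57BL/6J mice were collected after 20 weeks on FFD, a diet rich in palm-oil fat with added fructose and cholesterol, or on its control diet, with 12 libraries per diet. All mice were of 1 inbred strain without an engineered allele, were adult when the diet began, and both sexes were used. RNA was extracted from liver tissue and not from separated cell types, so a level covers all cell types in the tissue used. Fewer cells of a type cannot be told apart from less RNA per cell. Because the strain is inbred, reads could not be assigned to a parental allele, and imprinting itself was not measured.

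Imprinted genes are read from only the maternal or only the paternal copy, and many of them set the growth of the fetus. H19, a long noncoding RNA read from the maternal copy, and Igf2, a fetal growth factor read from the paternal copy, lie side by side and share enhancers and a CTCF-bound control region. Dlk1 and Meg3 form a similar pair, with the paternally read Dlk1 encoding a transmembrane Notch-family ligand and the maternally read Meg3 a long noncoding RNA. Cdkn1c, maternally read, encodes the cyclin-dependent kinase inhibitor p57, and Peg3, paternally read, encodes a zinc-finger protein. Afp (alpha-fetoprotein, the main serum protein of the fetus), Gpc3 (a cell-surface glypican) and Igf2bp3 (an RNA-binding protein that binds Igf2 transcripts) are not imprinted genes of this kind, but are abundant in fetal tissue and used as markers of liver tumours. Most of these genes are silenced, or nearly so, in adult liver.

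In the mouse build GRCm38 (mm10), as annotated by GENCODE M21, H19 (ENSMUSG00000000031) lies on the minus strand at chr7:142575529-142578143. Igf2 (ENSMUSG00000048583) lies on the same strand at chr7:142650766-142666816, and Cdkn1c (ENSMUSG00000037664) at chr7:143458339-143461050. Peg3 (ENSMUSG00000002265) is at chr7:6703892-6730431, also on the minus strand. Dlk1 (ENSMUSG00000040856) and Meg3 (ENSMUSG00000021268) are on the plus strand at chr12:109452823-109463336 and chr12:109541001-109571726. Afp (ENSMUSG00000054932) is on the plus strand at chr5:90490737-90508907, next to the albumin gene family. Gpc3 (ENSMUSG00000055653) is on the minus strand at chrX:52272426-52613950 and Igf2bp3 (ENSMUSG00000029814) on the minus strand at chr6:49085223-49214957.

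An exon of H19 carries the hairpin of the microRNA miR-675, whose mature arms are shown because H19 was the member with the widest separation of the diets. Both lie on the minus strand of chromosome 7, the 5p arm at chr7:142577112-142577133 and the 3p arm at chr7:142577078-142577099 (RefSeq, GRCm38.p6). Capitals mark the seed, bases 2 to 8.
mmu-miR-675-5p: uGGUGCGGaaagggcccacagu
mmu-miR-675-3p: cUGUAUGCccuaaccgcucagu
The arms have different seeds. Sequencing covered poly(A)-selected transcripts only, the Mir675 row held 0 counts in every library, and the mature arms were not measured.

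Promoter sequences from RefSeq (GRCm38.p6), 250 bases before to 50 bases after a start site, were given for 7 of the 9 members and 11 start sites, with none for H19 and Cdkn1c. They were searched on both strands for GTTAAT, a half-site of the hepatocyte factor HNF1, and for TATAAA, the TATA box. Only the promoter of Afp, of these 11, held GTTAAT, which was found in 7.1% of all 32851 promoters. TATAAA was found in the promoter of Afp and in 1 of the promoters of Meg3, and in 13.6% of all promoters. The promoters of Afp (chr5:90490464-90490763, plus strand) and Gpc3 (chrX:52613925-52614224, minus strand) are shown as the 2 fetal coding genes with enough counts to follow across libraries, with both motifs in capitals.
Afp: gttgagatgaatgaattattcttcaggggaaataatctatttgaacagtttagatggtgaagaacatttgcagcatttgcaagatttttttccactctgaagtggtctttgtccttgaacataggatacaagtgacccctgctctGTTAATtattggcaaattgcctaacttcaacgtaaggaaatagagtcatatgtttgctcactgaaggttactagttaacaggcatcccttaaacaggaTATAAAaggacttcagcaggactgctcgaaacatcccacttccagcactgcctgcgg
Gpc3: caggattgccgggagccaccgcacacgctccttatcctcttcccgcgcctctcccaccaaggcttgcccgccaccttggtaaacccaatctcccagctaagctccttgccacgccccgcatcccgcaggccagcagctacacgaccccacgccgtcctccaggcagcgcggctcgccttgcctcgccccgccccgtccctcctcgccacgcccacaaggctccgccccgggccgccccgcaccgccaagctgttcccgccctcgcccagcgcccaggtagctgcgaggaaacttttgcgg
The Gpc3 promoter held neither motif. These matches are letters in a window, and no binding was measured.

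The libraries held 14468418 to 22112552 counts, and levels are in CPM, counts divided by the library total in units of 1e+06, with totals scaled by edgeR's TMM factors. At this depth 3 counts were worth 0.118 to 0.305 CPM, and levels near that are set by counting error. Of the 9 members, 8 reached 1 count in 12 or more of the 24 libraries and so entered the fit, and Dlk1 did not. Libraries fell into 2 sets that the diet does not separate. Replicates 1 to 6 of both diets had 2664 to 6285 counts of Xist, an X-chromosome transcript, and replicates 7 to 12 had 0 to 3. Ddx3y, a Y-chromosome gene, went the other way, with 0 counts in replicates 1 to 6 and 448 to 1016 in replicates 7 to 12. Both genes split the libraries as female and male mice would. The labels do not give the sex of a library, so the sets are named by their Xist counts, above or below 1000. Control replicate 10 stood apart, with the lowest total, the lowest TMM factor (0.679) and Mup7 in place of Alb as its most counted gene. Alb, Apoa1 and the 5 other hepatocyte markers were abundant in all libraries, with a summed level of at least 37880 CPM.

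Per kilobase of exon, H19 had the highest mean level of the members on FFD, at 3.20 ± 1.62 CPM per kb (SD, n = 12). Cdkn1c followed at 1.36 ± 0.402 CPM per kb (SD, n = 12), a gap within the sum of the SDs. Gpc3, Afp and Peg3 came next at mean levels of 0.399, 0.396 and 0.337 CPM per kb, and did not differ from each other beyond their spread. Igf2 was lower, at 0.0726 ± 0.0234 CPM per kb (SD, n = 12). Meg3, Dlk1 and Igf2bp3 shared the lowest place, at 0.0170, 0.0169 and 0.0163 CPM per kb. On the control diet Cdkn1c led at 1.40 ± 0.735 CPM per kb (SD, n = 12) and H19 was second at 0.449 ± 0.646. In that order only the step from Igf2 (0.0975 CPM per kb) to Meg3 (0.0264) exceeded the sum of the neighbours' SDs.

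H19 was higher on FFD than on the control diet in most libraries. On FFD its counts ran from 28 to 289 (median 129.5) and its level from 1.49 to 13.8 CPM (median 5.99). On the control diet its counts ran from 1 to 120 (median 7.5) and its level from 0.0576 to 5.54 CPM (median 0.381). The mean level was 7.87 ± 3.99 CPM (SD, n = 12) on FFD against 1.10 ± 1.59 (SD, n = 12) in controls. The fitted log2 fold change was 2.77 with a standard error of 0.52. The groups overlapped, since 8 of the 12 FFD libraries lay above the highest control library, replicate 6, and 9 control libraries lay below the lowest FFD library, replicate 3. Leaving out control replicate 6 gave a log2 fold change of 3.43. H19 was the 1 member of the 8 that met the thresholds of adjusted p at most 0.01 and a log2 fold change over 0.5 in this direction. Of all 17913 genes tested, 13.2% met them, and because the members were chosen from this comparison nothing is read from that count.

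Igf2, the neighbour of H19, was close to the counting limit on both diets. It had 3 to 14 counts per library on FFD (median 8.5), at 0.415 ± 0.134 CPM (SD, n = 12). It had 4 to 17 counts on the control diet (median 11.5), at 0.558 ± 0.221 CPM (SD, n = 12). Its log2 fold change was -0.43 with a standard error of 0.25, and 5 control libraries lay above the highest FFD library while the rest overlapped. The exons of Igf2 share 3596 bp with Gm49394 on the same strand, a gene model that held 0 to 5 counts, and how reads on both were assigned is not known. None of the 8 fitted members met the thresholds in the lower direction, which 4.99% of all genes met.

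In the Dlk1 and Meg3 cluster both members had few counts. Dlk1 had 25 counts in all on FFD, spread over 7 of 12 libraries with at most 7 in one, and 6 counts on the control diet, in 2 of 12 libraries. Meg3 had 0 to 11 counts on FFD (median 7) and 2 to 13 on the control diet (median 7). Its level was 0.308 ± 0.167 CPM (SD, n = 12) on FFD against 0.478 ± 0.325 (SD, n = 12) in controls, and the log2 fold change -0.59 ± 0.39 (standard error). The highest control library was replicate 10, the library that stood apart, at 1.32 CPM, and without it the log2 fold change of Meg3 was -0.38. Rian, a noncoding RNA of the same cluster, was at 0.115 ± 0.0933 CPM (SD, n = 12) on FFD against 0.147 ± 0.118 (SD, n = 12) in controls. Dio3, the paternally read thyroid-hormone deiodinase at the far end of the cluster, rose with FFD at low level, from 0.166 ± 0.168 CPM (SD, n = 12) to 0.588 ± 0.224 (SD, n = 12). Its log2 fold change was 1.78 (standard error 0.46, edgeR quasi-likelihood adjusted p = 0.00315).

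Cdkn1c had nearly equal mean levels on both diets. Counts ran from 28 to 78 (median 54.5) on FFD. In controls they ran from 14 to 118 (median 53.5). The level was 2.77 ± 0.820 CPM (SD, n = 12) on FFD and 2.85 ± 1.499 (SD, n = 12) in controls, and the log2 fold change -0.05 ± 0.25 (standard error). That sign is not fixed, since scaling by library totals alone gave 0.18. Cdkn1a, the related inhibitor p21 encoded elsewhere, rose from 4.45 ± 4.48 to 20.3 ± 8.04 CPM (SD, n = 12 each). Its log2 fold change was 2.18 (standard error 0.39, edgeR adjusted p = 9.21e-05), while Cdkn1b, encoding p27, did not pass, at a log2 fold change of -0.03.

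Peg3 was one of the better counted members, and 1 library set its FFD mean. On FFD its counts ran from 39 to 369 (median 55) and its level from 1.54 to 19.7 CPM (median 2.92). The highest value was that of FFD replicate 3, and the next FFD library had 5.53 CPM. On the control diet its counts ran from 8 to 204 (median 61.5) and its level from 0.815 to 10.03 CPM (median 3.55). The log2 fold change was 0.01 (standard error 0.37) with FFD replicate 3 and -0.52 without it. That library also had the lowest H19 level of the FFD libraries (1.49 CPM), the lowest sum of monocyte-derived macrophage markers (41.7 CPM), the highest sum of hepatocyte markers (91490 CPM) and the highest sum of dividing-cell markers (60.8 CPM). Its sums of activated stellate cell (219 CPM), portal fibroblast (13.9 CPM) and cholangiocyte (10.8 CPM) markers were also the lowest on FFD. Its sinusoidal endothelium sum was the highest on FFD (299 CPM). The part of these in its Peg3 level was not tested.

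Afp and Gpc3 were low on both diets. Afp had 5 to 57 counts on FFD (median 27) and 5 to 27 on the control diet (median 15). Its level was 1.33 ± 0.783 CPM (SD, n = 12) on FFD and 0.920 ± 0.558 (SD, n = 12) on the control diet, and the log2 fold change 0.57 ± 0.36 (standard error). Only 1 FFD library exceeded the highest control library, replicate 10 at 2.24 CPM, which is the library that stood apart. The next control library had 1.48 CPM, and 6 of the 12 FFD libraries lay above it. Without control replicate 10 the log2 fold change of Afp was 0.75. Gpc3 had 4 to 37 counts on FFD (median 22) and 1 to 26 on the control diet (median 11.5). Its level was 1.07 ± 0.407 CPM (SD, n = 12) on FFD and 0.635 ± 0.399 (SD, n = 12) on the control diet, and the log2 fold change 0.74 ± 0.33 (standard error). For Gpc3, 4 of the 12 FFD libraries lay above every control library.

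Igf2bp3 was barely detected. It had 34 counts in all on FFD and 11 on the control diet. Of the 34, 13 came from FFD replicate 9, and no other library of either diet had more than 3. Its log2 fold change was 1.29 ± 0.57 (standard error), or 0.81 without that library, which also had by far the highest sum of cholangiocyte markers (195.9 CPM, against at most 51.2 in the other FFD libraries). The part of these cells in the value was not tested. The gene shares 1529 bp of exon with Malsu1 on the opposite strand, which had 234 to 555 counts per library. The study's methods name a stranded library kit, but whether the counting used strand is not stated, so the source of the Igf2bp3 counts is uncertain.

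**Figure D1:**
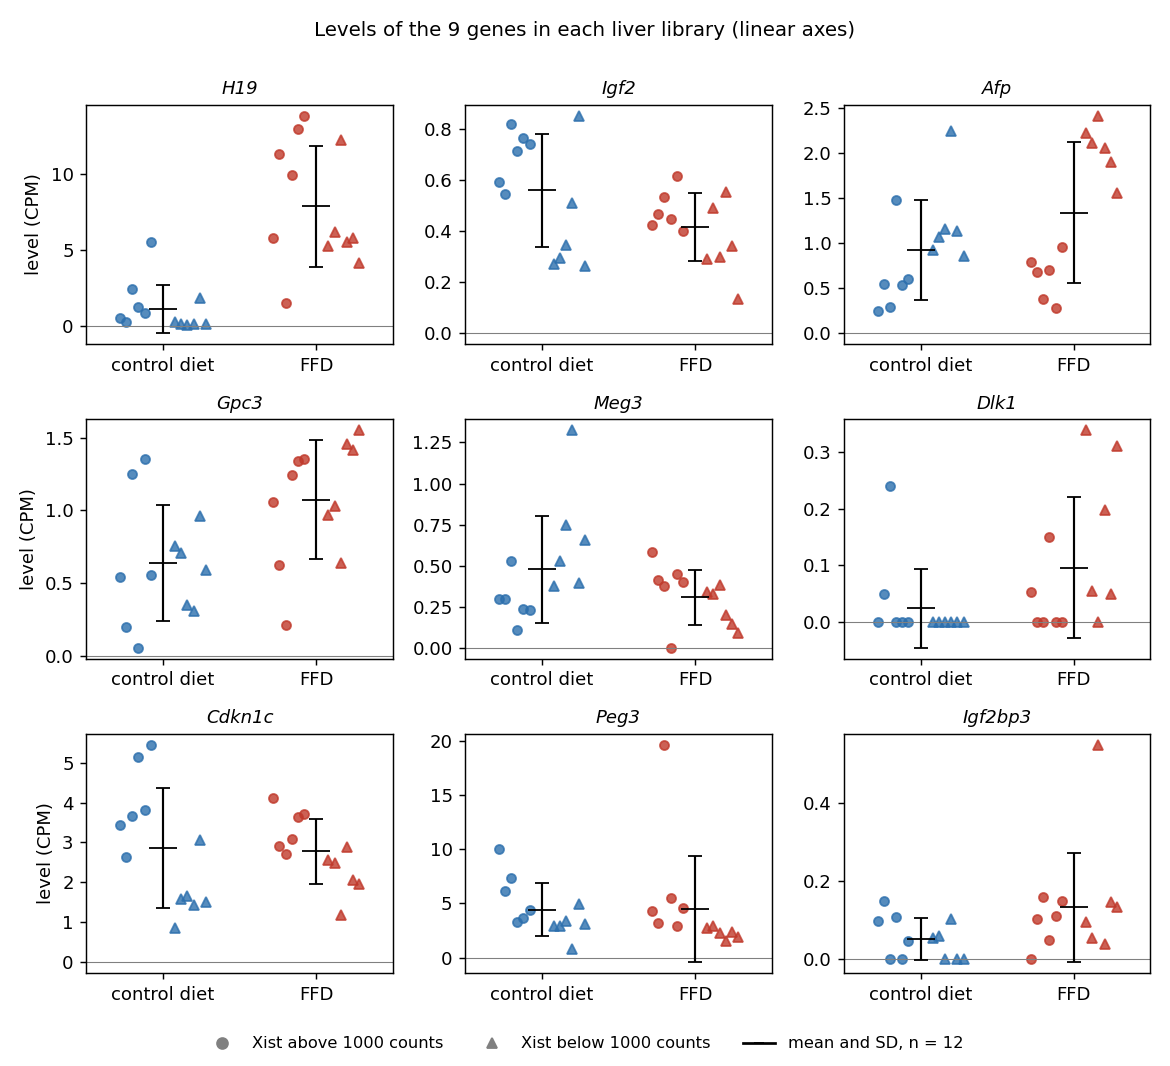
Level of each of the 9 genes in CPM (linear axis, own scale per panel) in the 12 control-diet and 12 FFD libraries. Circles are libraries with Xist above 1000 counts, triangles those below, and the bars are the mean and SD of 12 libraries. H19 ran from 1.49 to 13.8 CPM on FFD and from 0.0576 to 5.54 on the control diet, while the other 8 genes overlapped more, and 1 FFD library (19.7 CPM) set the range of Peg3.

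The library sets also stood apart for several members. On FFD, Afp ran from 0.279 to 0.953 CPM in the 6 libraries with Xist above 1000 counts and from 1.55 to 2.41 in the 6 below, without overlap. On the control diet the Afp sets overlapped, at 0.246 to 1.48 and 0.855 to 2.24 CPM. Peg3 went the other way on FFD, at 2.96 to 19.7 CPM above and 1.54 to 2.87 below, without overlap. On the control diet Cdkn1c ran from 2.63 to 5.45 CPM above and from 0.865 to 3.06 below, with 1 library of the lower set, replicate 11, inside the range of the other. Control H19 was at 0.248 to 5.54 CPM above (5 to 120 counts) and 0.0576 to 1.81 below (1 to 32 counts). On FFD, H19 ran from 1.49 to 13.8 CPM above and from 4.16 to 12.2 below. These are ranges over sets defined by Xist counts, and no test was run on them.

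Whether the diet difference itself depended on the set was tested by the interaction term, which the choice of members did not use. No member passed at adjusted p ≤ 0.01, while 4.04% of all 17913 genes did (edgeR's quasi-likelihood test). DESeq2 and limma-voom called 0 members as well. At an unadjusted p under 0.05 in edgeR, 1 member was found, Meg3. Its log2 fold change was 0.37 in the libraries with Xist above 1000 counts and -1.38 in those below, a difference of -1.76 (standard error 0.70, edgeR quasi-likelihood adjusted p = 0.116). Over the alternatives its adjusted p ran from 0.0279 (edgeR, without FFD replicate 4) to 0.334 (limma-voom). Those values rest on 0 to 13 counts per library. For H19 the log2 fold change was 2.34 above and 3.89 below, and the difference of 1.53 had an adjusted p of 0.325 in the same test. That difference depended on single control libraries, at 0.74 without control replicate 6 and 3.13 without control replicate 11 (edgeR adjusted p = 0.0382). Afp had log2 fold changes of 0.06 above and 0.78 below (edgeR adjusted p of the difference 0.407), and Gpc3 of 0.57 and 0.93 (edgeR adjusted p of the difference 0.806). A miss of the threshold does not show that the sets responded alike.

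**Figure D2:**
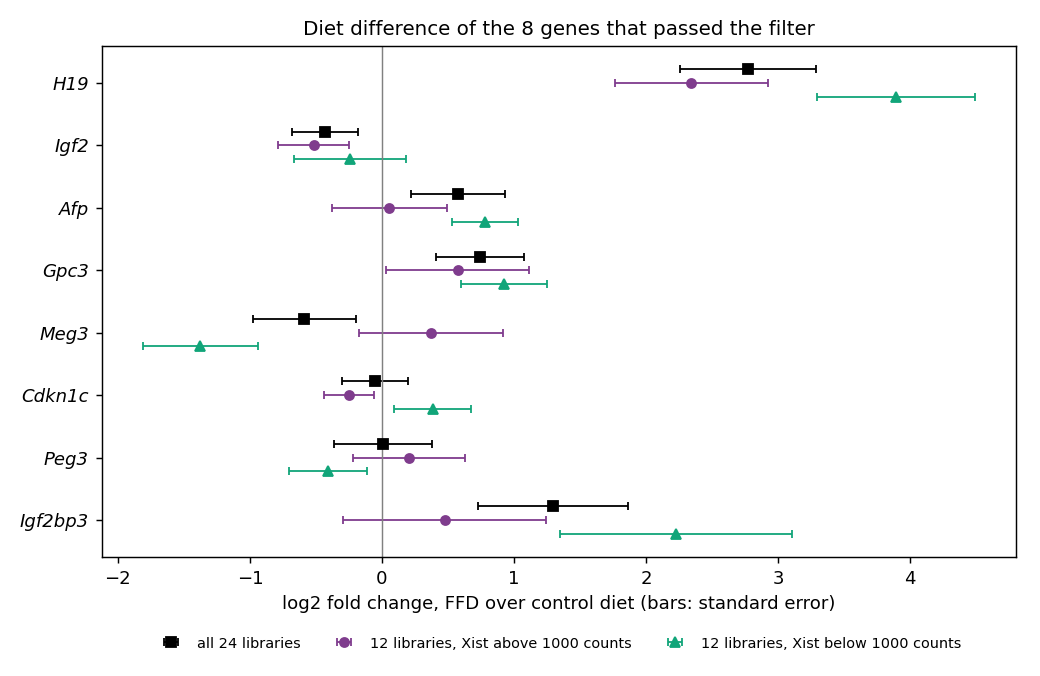
Log2 fold change of FFD over the control diet for the 8 fitted genes, with standard errors as bars. Squares are all 24 libraries, circles the 12 with Xist above 1000 counts and triangles the 12 below; H19 lies at 2.77, 2.34 and 3.89, and Meg3 changes sign between the sets, at 0.37 and -1.38.

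H19 was then set beside the cell type markers measured in the same libraries. All 6 markers of monocyte-derived macrophages (among them Gpnmb and Trem2) passed the test as higher on FFD, with a summed level of 41.7 to 236.8 CPM against 3.87 to 34.0 on the control diet. Of 8 markers of activated stellate cells, the collagen-producing cells of fibrosis, 6 were higher, with sums of 219 to 667 CPM against 46.3 to 235. Of 7 hepatocyte markers 6 were lower, with sums of 37880 to 91490 CPM against 81640 to 131500. Over all genes tested, 13.2% were higher and 4.99% lower. With library totals as the scale, only Cps1 and Pck1 of the hepatocyte markers were called lower. The 2 control libraries with the highest macrophage sums, replicates 6 (34.0 CPM) and 11 (25.5 CPM), also had high H19 for controls, at 5.54 and 1.81 CPM. Control replicate 3 lay between them, with 2.40 CPM of H19 and a macrophage sum of 8.32 CPM. For activated stellate cell markers the highest control sums were those of replicates 11, 6 and 3, at 235, 130 and 82.3 CPM. On FFD, macrophage sums were 41.7 to 134.7 CPM in the libraries with Xist above 1000 counts and 163.4 to 236.8 below. Stellate cell sums were 219 to 365 and 403 to 667 CPM in the same order. The median H19 level went the other way, at 10.6 CPM above and 5.66 below. The 5 skeletal muscle markers summed to 0.310 to 1.28 CPM on FFD and 0.173 to 1.48 in controls, mostly Mylpf, with Ckm and Myh4 at a mean below 0.03. The 5 pancreas markers summed to 0.0885 to 1.07 and 0.230 to 1.45 CPM, mostly Cela2a, with Cpa1 at 0 counts. The 5 adipocyte markers reached 19.2 CPM on FFD (replicate 8) and 19.8 in controls (replicate 11), mostly Cfd, while Lep had no count and Adipoq at most 5. The part of a change in cell types in the H19 level was not tested.

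**Figure D3:**
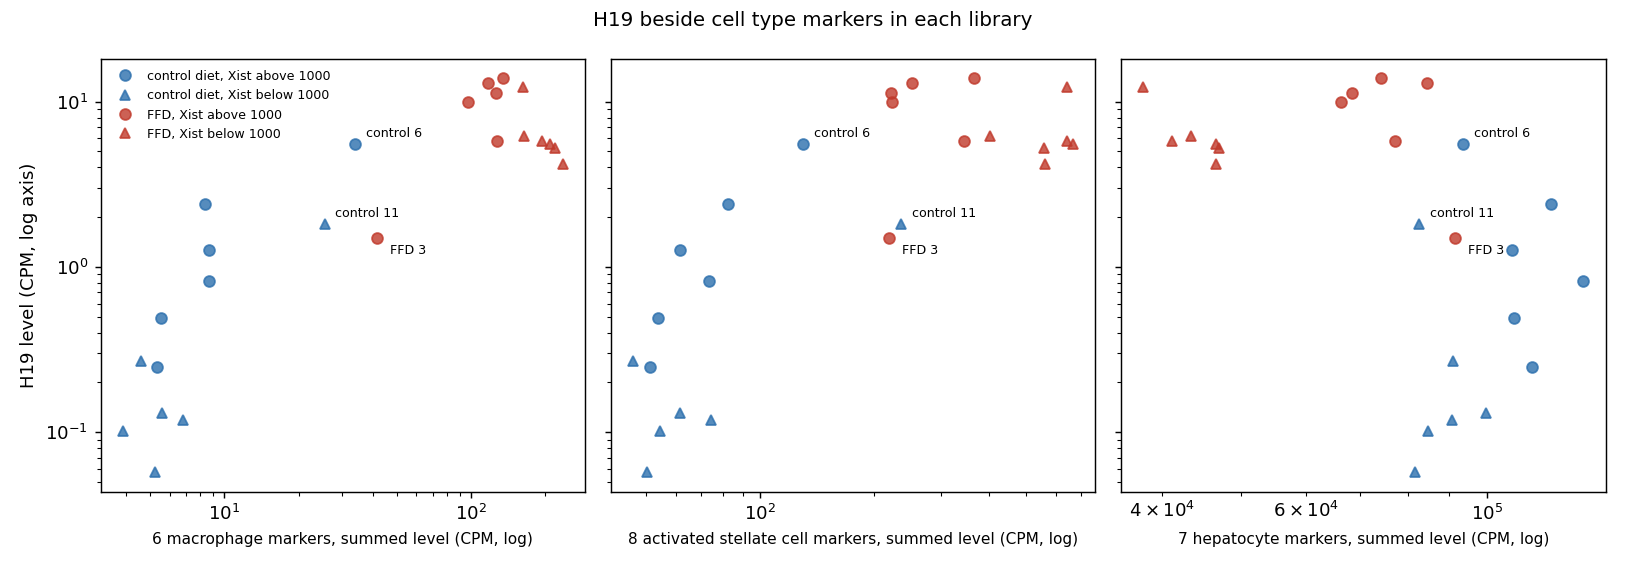
H19 level (CPM, log axis) against the summed level of 6 monocyte-derived macrophage, 8 activated stellate cell and 7 hepatocyte markers (CPM, log axes), 1 point per library. Control replicates 6 and 11 lie nearest to the FFD libraries in the macrophage panel, at 34.0 and 25.5 CPM, and FFD replicate 3 lies nearest to the controls, at 41.7. In the stellate cell panel control replicates 11 and 6 also have the highest sums of the controls, at 235 and 130 CPM.

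Within a diet, relations between members were examined from library to library as log2(CPM + 1) with set means removed. The pairs were H19 with Igf2, Afp, Gpc3 and Col1a1, and Meg3 with Dlk1, and a pair was computed where both genes had a median of at least 10 counts. That left out H19 with Igf2, Meg3 with Dlk1 and all of these pairs on the control diet. H19 and Afp had a Pearson's r of 0.439 (permutation p = 0.251, adjusted 0.443) and a Spearman's rho of 0.406 (permutation p = 0.222, adjusted 0.443) over 12 libraries. Leaving out the 2 libraries with the most extreme H19 levels gave r = 0.0593. H19 and Gpc3 had an r of 0.428 (permutation p = 0.248, adjusted 0.443) and a rho of 0.21 (permutation p = 0.547, adjusted 0.583), with r = -0.53 without the 2 farthest libraries. Within the sets that relation had opposite signs, with r = 0.822 in the 6 libraries with Xist above 1000 counts (exact p = 0.0431) and -0.84 in the 6 below (exact p = 0.0333), both unadjusted and neither shown by the pooled value. H19 and Col1a1, the collagen type I chain, had an r of 0.392 (permutation p = 0.296, adjusted 0.443) and a rho of 0.189 (permutation p = 0.583, adjusted 0.583), falling to r = -0.315 with the 2 farthest left out. None of the 3 pairs passed after adjustment over the family of 6 values.

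The genes whose pattern was most like each member were taken from 13928 genes with a mean of at least 10 counts, by Pearson's r over 24 libraries after the mean of each diet and set was subtracted. For H19 they were Spp1 (osteopontin, r = 0.852), Atp9a (0.819) and Cxcl16 (0.795). For Gpc3 they were Fmod (fibromodulin, 0.843), Dpep1 (0.774) and the mesothelial gene Upk3b (0.751). Afp was closest to Atxn10 (0.865), Nagk (0.837) and Lrrc57 (0.826). Cdkn1c was closest to Cd81 (0.881), itself a gene of the imprinted region around Cdkn1c, then Tlr2 (0.84) and Smpdl3a (0.828). Peg3 was close to Ube2o (0.839) and Armcx4 (0.825). Between members r was smaller, from -0.516 for Afp with Peg3 to 0.378 for H19 with Gpc3. These values are the largest of many, share the libraries' depth and composition, and are a description.

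Of 52 other imprinted genes 39 were tested, and most did not pass. Of these, 7 rose on FFD, 1 fell and 31 did not pass, with a median log2 fold change of 0.27 against -0.03 over all genes tested. Over all genes 13.2% rose and 4.99% fell. The genes that rose were Grb10, an adaptor that dampens insulin-receptor signalling (log2 fold change 1.003, standard error 0.19), Kcnq1, a potassium channel (1.19, 0.31), Osbpl5, a lipid-transfer protein (0.98, 0.22), and Gatm, an enzyme of creatine synthesis (0.84, 0.15). Mest (1.19, 0.31), Asb4 (1.10, 0.32) and Dio3 also rose. Grb10 went from 2.84 ± 0.537 to 5.70 ± 2.58 CPM (SD, n = 12 each), with 11 FFD libraries above every control library (edgeR quasi-likelihood adjusted p = 0.000157). Within the library sets the log2 fold changes of Kcnq1 were 0.09 (Xist above 1000 counts) and 2.06 (below). Those of Asb4 were 0.07 and 2.09, and those of Grb10 0.70 and 1.27. The interaction of none of the 3 passed, with edgeR adjusted p of 0.0101, 0.0184 and 0.344 in that order. Asb4 lost its call in 15 of the 24 fits with 1 library left out. Without FFD replicate 9 the log2 fold change was 0.83 for Kcnq1 and 0.84 for Grb10, both still called. For Kcnq1, 4 FFD libraries lay above every control library. Ube3a, a ubiquitin ligase, fell from 31.5 ± 6.37 to 18.8 ± 4.94 CPM (SD, n = 12 each; log2 fold change -0.74, edgeR adjusted p = 0.000123), a call absent when library totals alone set the scale. Several of these genes are imprinted in some tissues only, and their imprinting in these livers was not measured.

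The best counted imprinted genes differed little. Slc38a4, an amino acid transporter, was at 947 ± 233 CPM (SD, n = 12) on FFD against 1295 ± 241 (SD, n = 12) in controls. Its log2 fold change of -0.45 (edgeR quasi-likelihood adjusted p = 0.00788) did not reach the fold threshold. Gnas (0.27) and Cd81 (0.28) had log2 fold changes above 0 that did not pass, and both passed with library totals as the scale. H13 (-0.14, edgeR adjusted p = 0.209) did not pass either. Inpp5f (-0.28, edgeR adjusted p = 0.00246) and Impact (0.28, edgeR adjusted p = 0.0098) missed only the fold threshold, and Impact too passed with library totals. Igf2r, the maternally read receptor that removes Igf2, was at 34.3 ± 4.80 and 32.8 ± 5.49 CPM (SD, n = 12 each) on FFD and the control diet, with a log2 fold change of 0.06.

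Of 26 other fetal or oncofetal liver genes 18 were tested, and 10 rose while 0 fell by edgeR's quasi-likelihood test, with a median log2 fold change of 1.89 against -0.03 over all genes. Over all genes tested, 13.2% rose and 4.99% fell. The list was drawn up with earlier results of these data known, so its count is a description. At an unadjusted p under 0.05 there was 1 lower gene, and DESeq2 called 1 and limma-voom 0. Lpl, lipoprotein lipase, went from 12.8 ± 7.51 to 134.5 ± 57.9 CPM (SD, n = 12 each), a log2 fold change of 3.39 (standard error 0.28, edgeR adjusted p = 2.07e-08). Scd2, a stearoyl-CoA desaturase of early life, went from 6.91 ± 2.53 to 31.4 ± 14.3 CPM (log2 fold change 2.18, edgeR adjusted p = 1.82e-07). Golm1, a Golgi protein, went from 1.65 ± 0.851 to 6.46 ± 2.56 CPM (log2 fold change 1.95, edgeR adjusted p = 6.21e-06). For these 3 genes all 12 FFD libraries lay above every control library. The other genes that rose were Tspan8 (3.01), Cd24a (2.74), Spink1 (2.53), Epcam (2.31), Mdk (2.20), Sox4 (2.14) and Igdcc4 (1.84), given as log2 fold changes. Of these, Igdcc4 lost its call in 4 of 24 fits with 1 library left out. Epcam, Cd24a, Sox4 and Tspan8 are also expressed by bile duct cells, and 5 of the 6 tested cholangiocyte markers, Epcam itself among them, rose, with sums of 10.8 to 195.9 CPM on FFD and 9.79 to 22.9 on the control diet. Without FFD replicate 9, the highest of these, the log2 fold changes were lower but still called, at 1.53 for Epcam, 1.61 for Mdk, 1.84 for Sox4, 2.20 for Cd24a and 2.34 for Tspan8. Igdcc4, at 1.37, was then not called. Spink1, with 0 to 29 counts per library, ranged from 2.30 to 3.12 over the fits with 1 library left out, the highest without control replicate 12. Within the library sets Epcam had log2 fold changes of 0.26 (above) and 3.32 (below), and Mdk of 0.29 and 3.19, while Lpl had 2.78 and 3.89 and Scd2 1.95 and 2.46. Of the 10 genes, the interaction passed for Epcam and Golm1. The part of bile duct cells in these levels was not tested. Cyp3a16, a cytochrome P450 of young liver with near-identical relatives, was at 7.35 ± 12.8 CPM (SD, n = 12) on FFD and 127.6 ± 157.1 (SD, n = 12) on the control diet, and missed the threshold (log2 fold change -4.13, edgeR adjusted p = 0.0131), with -4.12 in the libraries with Xist above 1000 counts and 2.09 in those below. Hmga1, a chromatin protein of dividing cells, did not pass at a log2 fold change of 0.30 (edgeR adjusted p = 0.0125). Igf2bp1, Lin28a, Lin28b, Trim71, Sox11 and the 3 embryonic globins on the list failed the filter on low counts.

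Among 25 regulators of fetal or imprinted genes, 3 rose, 3 fell and 19 did not pass, beside 13.2% higher and 4.99% lower over all genes. Zbtb20, a repressor of Afp after birth, fell from 54.0 ± 27.9 to 31.9 ± 7.07 CPM (SD, n = 12 each; log2 fold change -0.76, edgeR quasi-likelihood adjusted p = 0.00438). Zhx2, another repressor of Afp, H19 and Gpc3 after birth, was at 17.0 ± 1.75 and 17.3 ± 3.30 CPM (SD, n = 12 each), with a log2 fold change of -0.03 (edgeR adjusted p = 0.839). Of the 2 zinc-finger proteins that protect imprints, Zfp57 rose at low level (0.349 ± 0.121 to 0.913 ± 0.332 CPM, SD, n = 12 each; log2 fold change 1.36, edgeR adjusted p = 6.68e-05). The other, Zfp445, fell (log2 fold change -0.70, edgeR adjusted p = 0.00167). Dnmt1, the maintenance DNA methyltransferase, rose by a log2 fold change of 0.57, with all 12 FFD libraries above every control library (edgeR adjusted p = 7.64e-06). Tet1 (1.11) and Foxa3 (-0.59) also passed but each lost its call in 14 of 24 fits with 1 library left out. The log2 fold changes of Zbtb20 were -0.15 in the libraries with Xist above 1000 counts and -1.25 in those below, and those of Zfp445 -0.21 and -1.05, with interactions that did not pass. None of Zbtb20, Zfp445 and Foxa3 was called lower when library totals set the scale, under which the median over all genes was 0.26 rather than -0.03. Of the 3 best counted regulators, Cebpa (-0.40, edgeR adjusted p = 0.0002165) missed only the fold threshold. Hnf4a (-0.40, edgeR adjusted p = 0.0126) and Trim28 (-0.08, edgeR adjusted p = 0.362) missed the threshold on adjusted p as well. Relatives and partners of the members were mixed. Alb (-0.72), Afm (-0.84), both neighbours of Afp, and Igf1, the growth factor of postnatal life (-0.70), fell on the log2 scale. Gpc2, a glypican related to Gpc3, rose by 1.90 along with Cdkn1a, and Gc, another gene of the albumin family, did not pass at -0.20. Of the falls, only that of Afm was also called with library totals.

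**Figure D4:**
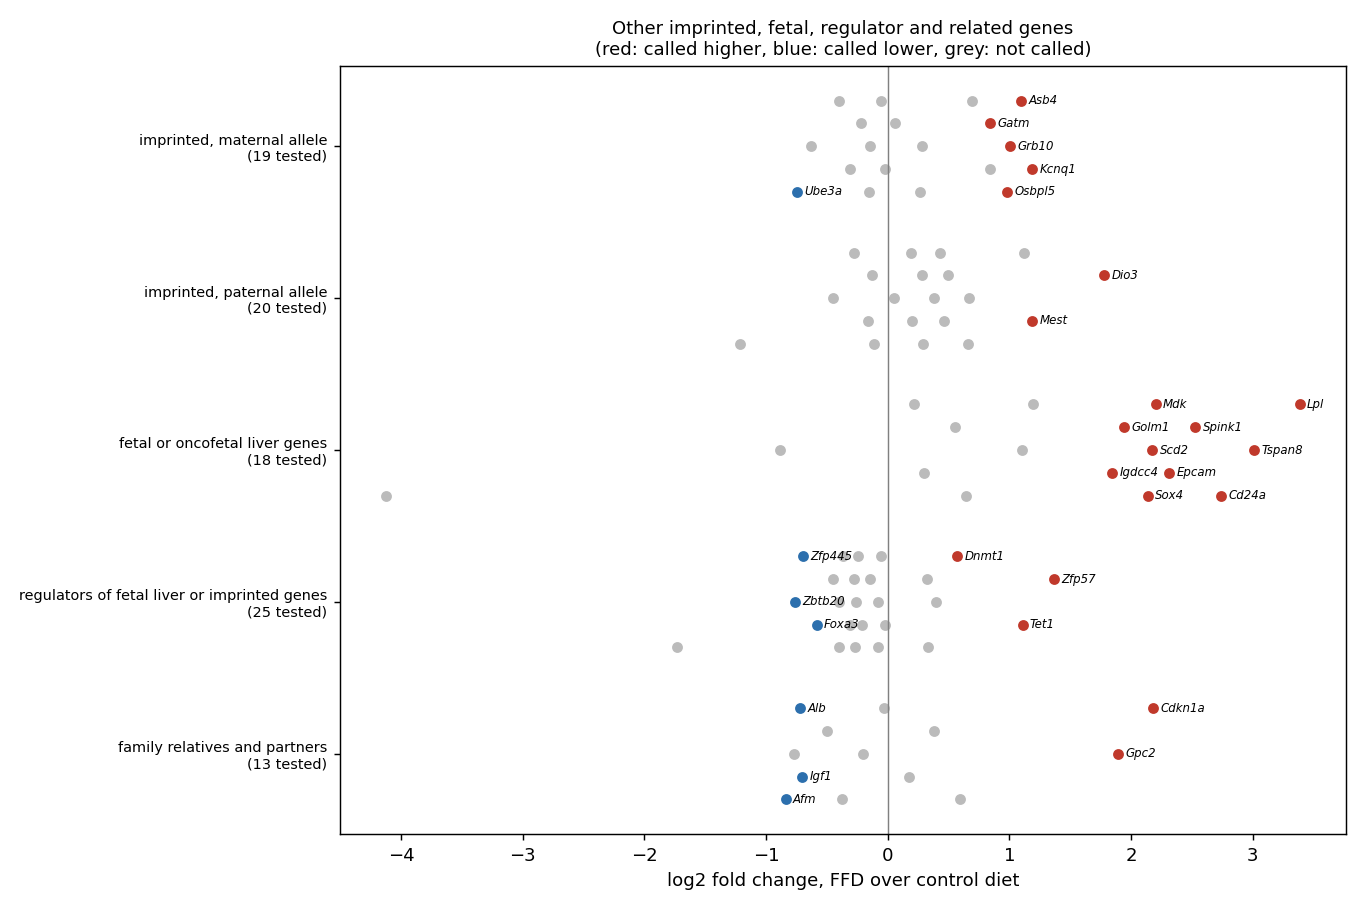
Log2 fold change of FFD over the control diet for each tested gene of 5 lists, 1 point per gene (vertical offsets within a list have no meaning), with genes called higher in red, lower in blue and not called in grey. The fetal list has 10 of 18 genes called higher, the 2 imprinted lists 5 of 19 and 2 of 20, beside 13.2% of all genes tested.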

How the data were processed

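For the 24 liver libraries the authors deposited raw counts, 1 row per Ensembl gene. Their processing notes name bcl2fastq, STAR 2.7.3a and mm10 without a role. The supplement describes alignment with STAR and gene quantification for human reads only, and for the mouse libraries the counter, its annotation and its use of strand are not given in the sources used here. GENCODE M21 gave symbols for 51745 of 56205 genes, coordinates and exon lengths. Each column was matched to its library by title, and diets came from the labels. Replicates are libraries numbered 1 to 12 per diet, which the design gives as separate mice. No 2 libraries agreed within sampling noise.

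Genes with 1 or more counts in 12 libraries entered the quasi-likelihood test of edgeR 4.0.16 (R 4.3.3) after TMM scaling. Calls needed a Benjamini-Hochberg adjusted p ≤ 0.01 together with a log2 fold change beyond 0.5 in either direction, as in the study's methods. A second fit added the library set and its interaction with diet. The fits were also run on simulated counts with changes put in, drawn from the fits' own model. That run does not show how the fits treat outlying libraries. Correlations used two-sided permutation tests within sets with 100000 resamples (exact for 6 libraries) in SciPy 1.17.1 and NumPy 2.4.6. Alternatives were DESeq2 1.42.0, limma-voom (limma 3.58.1), library totals, DESeq2's size factors, 3 filters, 2 thresholds, the replicate block, library sets, a pseudocount of 0.1 and each library left out.

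The members and lists were chosen with earlier results of these data known. Named genes were the members, list genes called between the diets, the 3 best counted genes of each list, and the 3 genes most like each member; other list genes named, such as Igf2r, Rian, Zhx2 and Cdkn1b, were added for their roles. The result of 1 other gene that the rule names is not reported here. Counting precision is limited at 3 counts or fewer, and intervals cover the libraries' spread only.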

Additional observations from a re-analysis of the deposited data

Results flagged for a closer look

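For 3 genes of the imprinted, fetal, regulator and relative lists, all outside the 9 members, the diet difference differed between the library sets in the edgeR interaction test. Values are the log2 fold change in libraries with Xist below 1000 counts minus that in libraries above, from the joint fit. For Epcam, a cell-adhesion molecule of bile duct and progenitor cells, it was 3.06 (adjusted p = 0.00775), with separate log2 fold changes of 0.26 above and 3.32 below, and the call was lost in 15 of 24 fits with 1 library left out. For Golm1 it was 1.76 (adjusted p = 0.00447), with 1.02 above and 2.80 below, and the call was lost in 3 of 24 such fits, without FFD replicate 10 or control replicates 6 or 7. For Gpc1, a glypican related to Gpc3, it was -2.48 (adjusted p = 0.000519), with 2.58 above and 0.11 below, and the call held in each of the 24 fits. Among the cell type markers the same test also called Hhip, of quiescent stellate cells, at -2.715 (adjusted p = 0.00347), and the call held in each fit. It called Cd5l, of Kupffer cells, at 1.42 (adjusted p = 0.00783), a call lost in 15 of the 24 fits.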

How the results depend on the processing

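Across all alternatives fitted, H19's log2 fold change lay between 2.34 and 3.89. The signs of Cdkn1c and Peg3 changed among alternatives (Cdkn1c 0.18 with library totals and 0.06 with the replicate block; Peg3 -0.29 with limma-voom and -0.18 with the block). Requiring 10 counts in each library removed every member but Cdkn1c, and edgeR's default filter removed Igf2, Meg3 and Igf2bp3 from the diet fit, so depth limits those genes. Dlk1 had a value only without a filter.

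With library totals, 3827 genes were higher and 226 lower (2372 and 894 in the fit reported), 12 imprinted genes were higher and 0 lower, and 1318 genes had an interaction (724 reported). The DESeq2 test gave 1352 interactions and 1 fetal gene lower. With at least 10 counts in every library, 1226 genes, 4 imprinted and 4 fetal genes were higher. In the libraries with Xist above 1000 counts alone, 520 genes were higher and 158 lower, 1 imprinted gene higher and 0 lower, 4 fetal genes higher and 1 lower, with Meg3 at a log2 fold change of 0.37 and Igf2bp3 at 0.47. In those below 1000, 1431 genes and 4 imprinted genes were lower, with Meg3 at -1.38 and Igf2bp3 at 2.23. At an adjusted p of 0.05 without a fold threshold, 3709 genes were higher and 3388 lower, 13 imprinted genes higher and 4 lower, 1 fetal gene lower, and 1831 genes had an interaction. With a log2 fold change over 1, 216 genes and 0 imprinted genes were lower. With the library set as covariate, 1 fetal gene was lower. The cause of these shifts was not tested, beyond the smaller samples and other thresholds themselves.

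With 1 library left out, counts ran from 2137 to 2464 higher, 745 to 995 lower, 6 to 8 imprinted genes higher and 1 to 2 lower, 9 to 10 fetal genes higher and 0 to 1 lower, and 493 (without control replicate 6) to 1178 (without control replicate 11) interactions. The replicate numbers were not taken as pairs, since same-numbered libraries correlated at -0.088 to 0.359 and 5 of 24 were closest to their own number. The replicate block gave 2063 higher and 844 lower genes, 5 imprinted genes higher and 1 lower, and 8 fetal genes higher and 1 lower.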
